A study of Mus musculus with 16 samples.

Results

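The 44 cell cycle genes described here were chosen by symbol, and each of the 44 was found once among the 55450 genes of the count table. They were grouped by the part of the cycle their products serve. The S phase list held 18 genes: Ccne1, Ccne2, E2f1, E2f2, Cdc6, Cdt1, Mcm2, Mcm3, Mcm4, Mcm5, Mcm6, Mcm7, Cdc45, Pcna, Rrm1, Rrm2, Tyms and Tk1. The mitotic list held 24 genes: Cdk1, Ccna2, Ccnb1, Ccnb2, Plk1, Foxm1, Cdc20, Ube2c, Bub1, Bub1b, Aurkb, Birc5, Cdca8, Aurka, Tpx2, Kif11, Kif20a, Kif23, Nusap1, Prc1, Cenpe, Cenpf, Mki67 and Top2a. The last 2 genes, Hmgb2 and Stmn1, were placed in neither list. All 44 passed the filter on low counts in every comparison, so none was left untested. Coordinates are of GRCm38.

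The genes were measured in CD4+ and CD8+ tumor-infiltrating lymphocytes (TILs) by stranded sequencing of total RNA depleted of ribosomal RNA. The cells came from WT or Sirt2-/- hosts bearing s.c. tumors grown from the mouse melanoma line B16F10, and each of the 4 groups held 4 libraries (16 in all). The study asked how SIRT2, a deacetylase, tunes T cell receptor signaling through the kinase LCK, and TILs were among the T cells it used. The Sirt2-/- mice were of the strain B6.129-Sirt2tm1.1Fwa/J, a germline knockout, so host cells of every type lacked the intact gene, while the injected melanoma cells were of the same line in both genotypes. The WT mice were C57BL/6J, and the labels name no treatment other than the tumor. By the study's methods the mice were young, matched for age and sex, and the TILs were released by enzyme digestion, passed through a density gradient and purified on CD3e beads. The study's methods give n = 4 per group for TILs from tumors of WT and Sirt2-/- mice. The labels do not say which animal each library came from. The p-values therefore measure the spread between these libraries, which may be partly technical. Whether CD4+ and CD8+ libraries came from the same mice is not stated, and the main fits took them as separate.

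A T cell that meets antigen leaves G0 through the D cyclins, which release E2F factors from RB1 and its relatives. E2F factors then switch on cyclin E, the licensing factors that load the MCM2-7 helicase on replication origins, the sliding clamp PCNA and the enzymes that make deoxynucleotides. Later in the cycle the DREAM complex, which has held mitotic genes silent, gives way to B-MYB and FOXM1, and the products of the mitotic genes condense the chromosomes, build the spindle and, through the anaphase-promoting complex (APC/C), let the chromosomes separate. SIRT2 has itself been linked to mitosis: it moves onto the mitotic structures in dividing cells and is known to deacetylate the APC/C activators CDC20 and CDH1 and the checkpoint kinase BUBR1, the product of Bub1b. In tumors, CD8+ T cells expand clonally on contact with antigen, and CD4+ TILs are a mix of helper and regulatory T cells.

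The promoters of these genes hold words known as sites of cell cycle factors. RefSeq promoter windows on GRCm38.p6, from 250 bases before to 50 bases after a start site, were found for 36 of the 44 genes (18 windows of 16 S phase genes, 20 windows of 19 mitotic genes and 1 window of Hmgb2). Aurkb, Ccna2, Ccne2, Foxm1, Kif20a, Mcm4, Stmn1 and Tpx2 had none. Each window was searched on both strands for 4 E2F words (TTTCCCGC, TTTCGCGC, TTTGCCGC and TTTGGCGC). It was also searched for the cell cycle homology region or CHR (TTTGAA), read by the DREAM complex and by the complex that holds B-MYB. A last search was for the CCAAT box (CCAAT) bound by NF-Y. Of the S phase windows, 38.9% held an E2F word, against 5.0% of the mitotic windows and 2.26% of all 32851 windows. The CHR showed the reverse, in 75.0% of the mitotic windows against 16.7% of the S phase windows and 17.9% of all windows. The CCAAT box was in 18 of the 20 mitotic and 12 of the 18 S phase windows, against 37.4% of all. A match is a description of the letters and not a bound site, and the sequence was not measured in these libraries.

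Windows of a pair of genes from each list are printed here, since these genes recur in the comparisons: Mcm5 and Mcm6 are helicase subunits that stood higher in CD8+ TILs, and Top2a and Mki67 are mitotic genes set against each other in the comparison of cell types. Each runs 5′ to 3′ on the strand of its gene. Capitals mark E2F words and CCAAT boxes in the S phase genes and CHR and CCAAT boxes in the mitotic genes, where neither window held an E2F word, and both orientations count. The E2F words of Mcm5 and the first of Mcm6 lie in a run where 2 words overlap.
Mcm5 (GRCm38.p6, chr8:75109259-75109558, + strand): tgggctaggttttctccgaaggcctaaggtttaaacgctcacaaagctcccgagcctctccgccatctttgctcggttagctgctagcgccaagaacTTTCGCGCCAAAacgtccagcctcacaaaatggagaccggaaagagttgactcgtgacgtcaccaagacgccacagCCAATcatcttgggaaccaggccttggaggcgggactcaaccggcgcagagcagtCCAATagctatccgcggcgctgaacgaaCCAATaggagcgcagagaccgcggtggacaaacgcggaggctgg
Mcm6 (GRCm38.p6, chr1:128359656-128359955, - strand): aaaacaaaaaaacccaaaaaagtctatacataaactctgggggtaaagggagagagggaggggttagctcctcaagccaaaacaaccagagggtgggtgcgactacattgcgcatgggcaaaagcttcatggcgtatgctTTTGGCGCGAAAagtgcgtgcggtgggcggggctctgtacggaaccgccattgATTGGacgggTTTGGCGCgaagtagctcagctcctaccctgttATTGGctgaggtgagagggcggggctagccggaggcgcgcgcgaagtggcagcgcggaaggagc
Top2a (GRCm38.p6, chr11:99024140-99024439, - strand): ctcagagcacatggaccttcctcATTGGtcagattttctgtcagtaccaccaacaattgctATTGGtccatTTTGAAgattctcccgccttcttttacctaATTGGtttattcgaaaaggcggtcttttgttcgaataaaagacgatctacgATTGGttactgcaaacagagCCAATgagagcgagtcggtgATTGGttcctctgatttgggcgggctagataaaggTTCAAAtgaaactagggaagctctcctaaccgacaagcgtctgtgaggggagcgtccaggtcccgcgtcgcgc
Mki67 (GRCm38.p6, chr7:135716330-135716629, - strand): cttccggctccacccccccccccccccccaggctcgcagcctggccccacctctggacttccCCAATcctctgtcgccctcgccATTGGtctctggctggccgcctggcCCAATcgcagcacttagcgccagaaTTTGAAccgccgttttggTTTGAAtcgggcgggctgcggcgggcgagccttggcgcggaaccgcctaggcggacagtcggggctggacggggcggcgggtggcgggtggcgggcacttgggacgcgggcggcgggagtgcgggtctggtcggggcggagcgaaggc
The Mcm5 window held 2 E2F words and 3 CCAAT boxes and the Mcm6 window 3 E2F words and 2 CCAAT boxes. In the mitotic pair, Top2a held 2 CHR and 6 CCAAT boxes and Mki67 2 CHR and 3 CCAAT boxes.

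Total counts per library ran from 28000949 to 62407851. In all, 3 libraries stood apart by the number of genes with at least 1 count: 8169 in Sirt2-/- CD4+ replicate 4, which had the highest total, 12587 in replicate 1 of the WT CD4+ group and 14411 in that of the WT CD8+ group, against 17730 to 22138 in the other 13. In Sirt2-/- CD4+ replicate 4, 15 of the 44 genes had 0 counts (7 S phase and 8 mitotic), while Cdc45 had none in replicate 1 of the WT CD4+ group and E2f1 none in replicate 1 of the WT CD8+ group. Results are therefore given with and without these 3 libraries. Values are in CPM (the share of a library's counts, scaled with TMM factors over the 16 libraries) and are listed for replicates 1 to 4 in order. Sirt2 itself was at 75.5, 41.1, 40.7 and 45.8 CPM in the WT CD4+ and at 12.2, 10.2, 10.6 and 0 in the Sirt2-/- CD4+ libraries, and at 51.5, 35.03, 33.4 and 33.7 in the WT CD8+ and 9.11, 10.3, 6.53 and 7.21 in the Sirt2-/- CD8+ libraries. It was lower in every Sirt2-/- library than in every WT library of the same cell type, and some reads were still counted in 7 of the 8 Sirt2-/- libraries. Cd4 was at 384 to 620 CPM in the CD4+ libraries and at 0 to 4.93 in the CD8+ libraries, and Cd8a and Cd8b1 summed to 14.03 to 74.9 and 1462 to 2046. The 8 melanoma markers summed to 81.5 CPM in Sirt2-/- CD4+ replicate 4 and 125 in WT CD4+ replicate 1, against 6.74 to 28.7 elsewhere. Of these, Mlana, Pmel and Sox10 were at 0 in at least 1 CD4+ library of each genotype. Melanoma cells divide too, and the part of their RNA in the cell cycle genes was not tested.

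Cell cycle genes were expressed in TILs of all 4 groups. The sum of the S phase genes stood higher in CD8+ than in CD4+ TILs of both genotypes, and neither list's sum separated Sirt2-/- from WT TILs. The 18 S phase genes summed to 626, 977, 697 and 895 CPM in the WT CD4+ libraries and to 676, 711, 844 and 1066 in the Sirt2-/- CD4+ libraries. In CD8+ TILs they summed to 1326, 2308, 1623 and 2068 CPM in the WT and 1529, 1508, 2310.4 and 2160.0 in the Sirt2-/- libraries. Every CD8+ library lay above every CD4+ library, and the genotypes overlapped within each cell type. The 24 mitotic genes summed to 1480.1, 1559, 889 and 833 CPM in the WT CD4+ and 467, 880.5, 1148 and 1624 in the Sirt2-/- CD4+ libraries, and to 1391, 2754, 1557 and 1881 in the WT CD8+ and 1211, 1369, 2296 and 2094 in the Sirt2-/- CD8+ libraries. These sums overlapped between the cell types as well as between the genotypes. The lowest was Sirt2-/- CD4+ replicate 1 and the highest WT CD8+ replicate 2. Without the libraries with few genes, the highest CD4+ and lowest CD8+ sums were 1558.9 and 1556.6 CPM in WT TILs, which still overlapped. In Sirt2-/- TILs they were 1148 and 1211 CPM and did not overlap. With Mki67 left out as well, they were 987 and 1108 CPM in WT and 725 and 894 CPM in Sirt2-/- TILs. The cell types then did not overlap in either genotype. In bulk RNA, more cycling cells and more of these transcripts per cycling cell cannot be told apart.

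**Figure D1:**
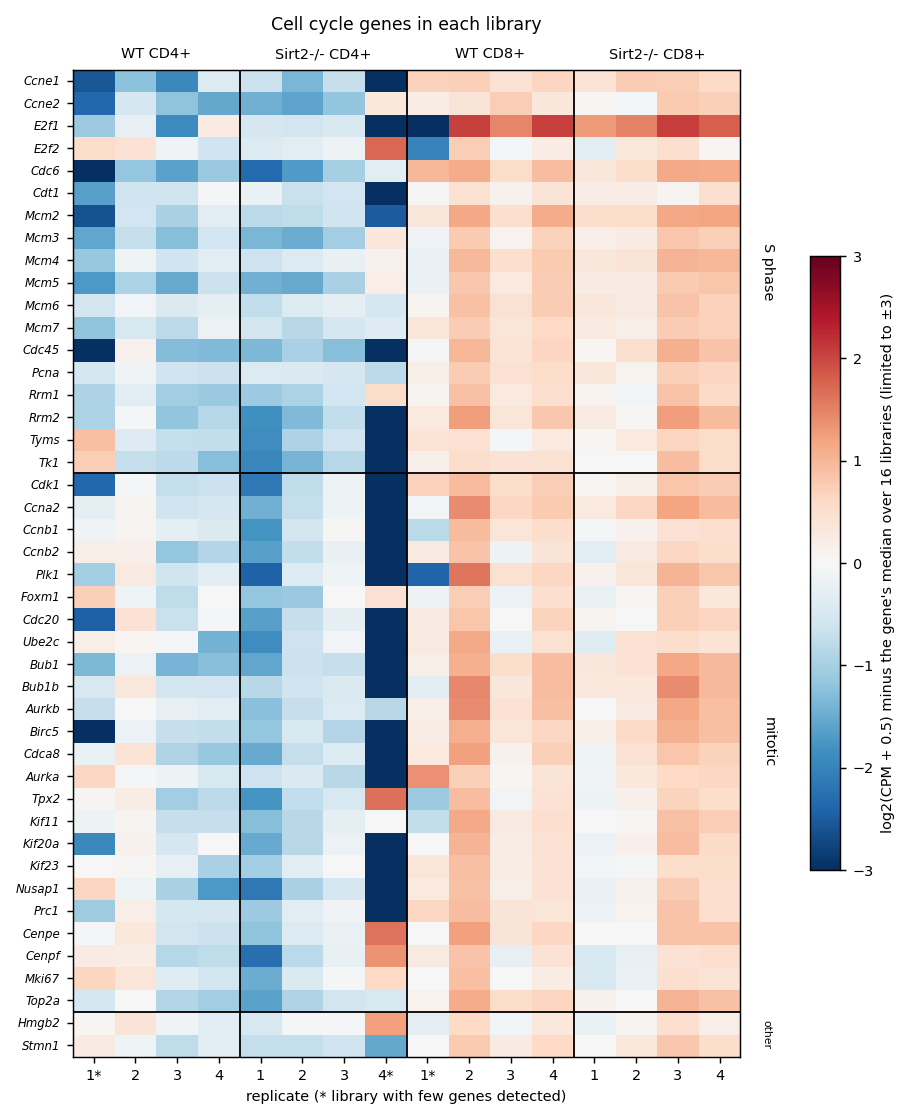
Level of each of the 44 genes (rows; S phase genes above, mitotic genes in the middle, Hmgb2 and Stmn1 below) in each of the 16 libraries (columns, by group and replicate), as log2(CPM + 0.5) minus the median of the gene over the libraries, limited to 3 in either direction. Most rows are blue in CD4+ and red in CD8+ TILs. Sirt2-/- CD4+ replicate 4 is darkest for its many genes at or near 0, while E2f2, Tpx2, Cenpe, Cenpf and Hmgb2 are above every other library there.

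**Figure D2:**
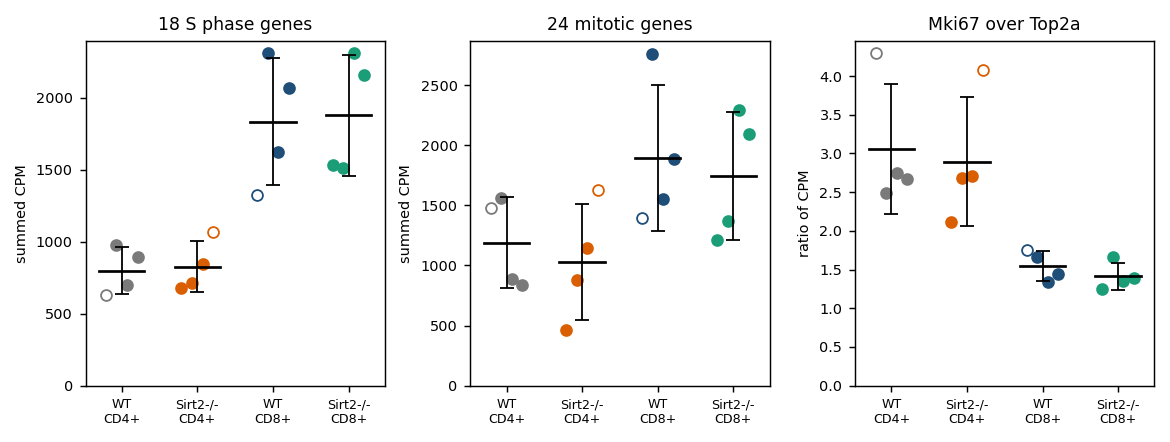
Summed CPM of the 18 S phase genes, summed CPM of the 24 mitotic genes, and the ratio of the CPM of Mki67 to that of Top2a, each by group. Points are libraries (open points are the 3 with few genes detected), bars the mean and SD of 4 libraries. The S phase sums are higher in all CD8+ than in all CD4+ libraries, and the ratio is lower, between 1.25 and 1.75 against 2.11 to 4.30.

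Levels per transcript length can be compared between genes, as RPKM (CPM per kilobase of merged exons). Hmgb2, an architectural chromatin protein abundant in cycling lymphocytes, stood highest in each group, with group means of 145 RPKM in WT CD4+, 178 in Sirt2-/- CD4+, 161 in WT CD8+ and 160.3 in Sirt2-/- CD8+ TILs. In CD4+ TILs Mki67 came next (47.3 and 39.3 RPKM in WT and Sirt2-/-), and in CD8+ TILs Mcm6 did (73.7 and 72.8). E2f1 was the lowest in both CD4+ groups (0.895 and 0.683 RPKM) and Ccne2 in both CD8+ groups (3.61 and 3.59). Both are regulators of the G1/S transition, and their levels lay below those of the helicase subunits in each group.

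Sirt2-/- and WT TILs were compared first, within each cell type. No difference passed the test for any of the 44 genes in CD4+ or in CD8+ TILs. In edgeR's quasi-likelihood test with Benjamini-Hochberg adjustment, 0 genes of the list passed an adjusted p of 0.05 in CD4+ TILs (0.0% of the 15070 genes tested) and 0 in CD8+ TILs (0.00654% of 15302). At an unadjusted p below 0.05 there were also 0 in either cell type, against 1.26% and 3.78% of all genes. DESeq2 called 0 of the 44 (0.0464% and 0.183% of all genes in CD4+ and CD8+ TILs), and so did limma-voom (0.0265% and 0.0261%). No gene of the list had all Sirt2-/- libraries below or above all WT libraries in either cell type, whereas 1.82% of all genes in CD4+ and 1.21% in CD8+ TILs were lower in every Sirt2-/- library, and 1.31% and 1.74% higher. Without the libraries with few genes 1 did, Aurkb in CD4+ TILs, the kinase of the passenger complex, at 3.95, 6.12 and 7.52 CPM in Sirt2-/- against 10.2, 8.53 and 8.06 in WT libraries, beside 5.28% of all genes lower in the same way. Its log2 fold change was then -0.60 ± 0.32 (SE, adjusted p = 0.990). A p that misses the threshold does not show that the genotypes are alike, and the intervals below give the range that these libraries allow.

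In CD4+ TILs most mitotic genes had a fold change below 0, unlike the S phase genes, but without a gene passing the test. The median log2 fold change (Sirt2-/- over WT) was -0.53 over the mitotic and -0.01 over the S phase genes, beside -0.11 over all genes tested. Of the mitotic genes 21 of 24 lay below 0, of the S phase genes 9 of 18. In Sirt2-/- CD4+ replicate 4 the near loss of counts was uneven between the lists. Besides the mitotic genes at 0, Cdk1, Ccnb2, Plk1, Ube2c, Kif20a and Prc1 had 1 count there and Ccna2 had 2. Of the S phase genes not at 0, the lowest there was Ccne2 with 646 counts. How far this set the lists apart was not tested. The lists lay closer together without Sirt2-/- CD4+ replicate 4 and WT CD4+ replicate 1. The medians then were -0.40 and -0.24, beside 0.00 over all genes, and 24 of 24 mitotic and 17 of 18 S phase genes lay below 0. Still 0 genes passed the adjusted test, and 1 of 44 passed at an unadjusted p below 0.05, against 4.35% of all genes. It was Mcm3, a helicase subunit, at -0.47 ± 0.18 (SE, log2, edgeR's adjusted p = 0.990) without the libraries and 0.28 ± 0.41 with them. Genes of a list share the same libraries, so their shared direction does not count as 24 separate observations.

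By role, the lowest medians in CD4+ TILs were those of the enzymes of nucleotide synthesis (Rrm1, Rrm2, Tyms and Tk1, -1.19 over 4 genes), of the mitotic kinases, cyclins and Foxm1 (-0.77 over 6) and of the checkpoint and APC/C genes (-0.77 over 4). Without the libraries with few genes these were -0.45, -0.40 and -0.38. In CD8+ TILs the medians were closer to 0: 0.02 over the S phase and -0.09 over the mitotic genes, beside 0.01 over all genes, and -0.07 and -0.20 without WT CD8+ replicate 1. There 0 genes passed at an unadjusted p below 0.05, against 4.18% of all genes. The fold changes of the 44 genes ran from -1.48 to 0.55 in CD4+ TILs and from -0.35 to 0.22 in CD8+ TILs.

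The S phase and the mitotic gene with the smallest unadjusted p were Rrm1 and Cenpe in CD4+ and Mcm4 and Kif23 in CD8+ TILs. Rrm1 (ENSMUSG00000030978.10, chr7:102441695-102469771, + strand), the large subunit of ribonucleotide reductase, was at 52.1, 79.8, 48.5 and 46.2 CPM in the WT CD4+, 46.5, 51.9, 67.2 and 146 in the Sirt2-/- CD4+, 106, 184, 122 and 143 in the WT CD8+ and 108, 94.1, 181 and 149 in the Sirt2-/- CD8+ libraries. Only the library of Sirt2-/- CD4+ replicate 4 stood above the WT CD4+ range, and the log2 fold change of 0.45 ± 0.37 (SE, unadjusted p = 0.25) became -0.07 ± 0.21 without the libraries with few genes. Cenpe (ENSMUSG00000045328.11, chr3:135212537-135273611, + strand), a kinetochore motor, was at 60.6, 77.7, 42.7 and 39.9 CPM in the WT CD4+, 26.9, 47.4, 54.9 and 195 in the Sirt2-/- CD4+, 62.4, 149, 81.95 and 96.3 in the WT CD8+ and 62.5, 62.7, 114 and 114 in the Sirt2-/- CD8+ libraries. Its fold change in CD4+ TILs turned from 0.55 ± 0.54 to -0.31 ± 0.29 in the same way. Mcm4 (ENSMUSG00000022673.5, chr16:15623897-15637400, - strand), a helicase subunit, was at 60.3, 122, 88.2 and 105 CPM in the WT CD4+, 86.1, 99.3, 114 and 145 in the Sirt2-/- CD4+, 115, 259.6, 189 and 230.3 in the WT CD8+ and 168, 174, 272 and 266 in the Sirt2-/- CD8+ libraries. The CD8+ genotypes overlapped, with a log2 fold change of 0.15 ± 0.24 (unadjusted p = 0.543), and -0.03 ± 0.19 without WT CD8+ replicate 1. Kif23 (ENSMUSG00000032254.10, chr9:61915905-61946774, - strand), a midzone kinesin, was at 33.8, 34.8, 28.3 and 17.05 CPM in the WT CD4+, 16.05, 26.9, 33.9 and 0 in the Sirt2-/- CD4+, 43.71, 63.6, 39.5 and 46 in the WT CD8+ and 32.2, 33.1, 48.9 and 49.3 in the Sirt2-/- CD8+ libraries. In CD8+ TILs its fold change of -0.24 ± 0.19 had an unadjusted p of 0.243, and every adjusted p of the list there was at least 0.986.

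**Figure D3:**
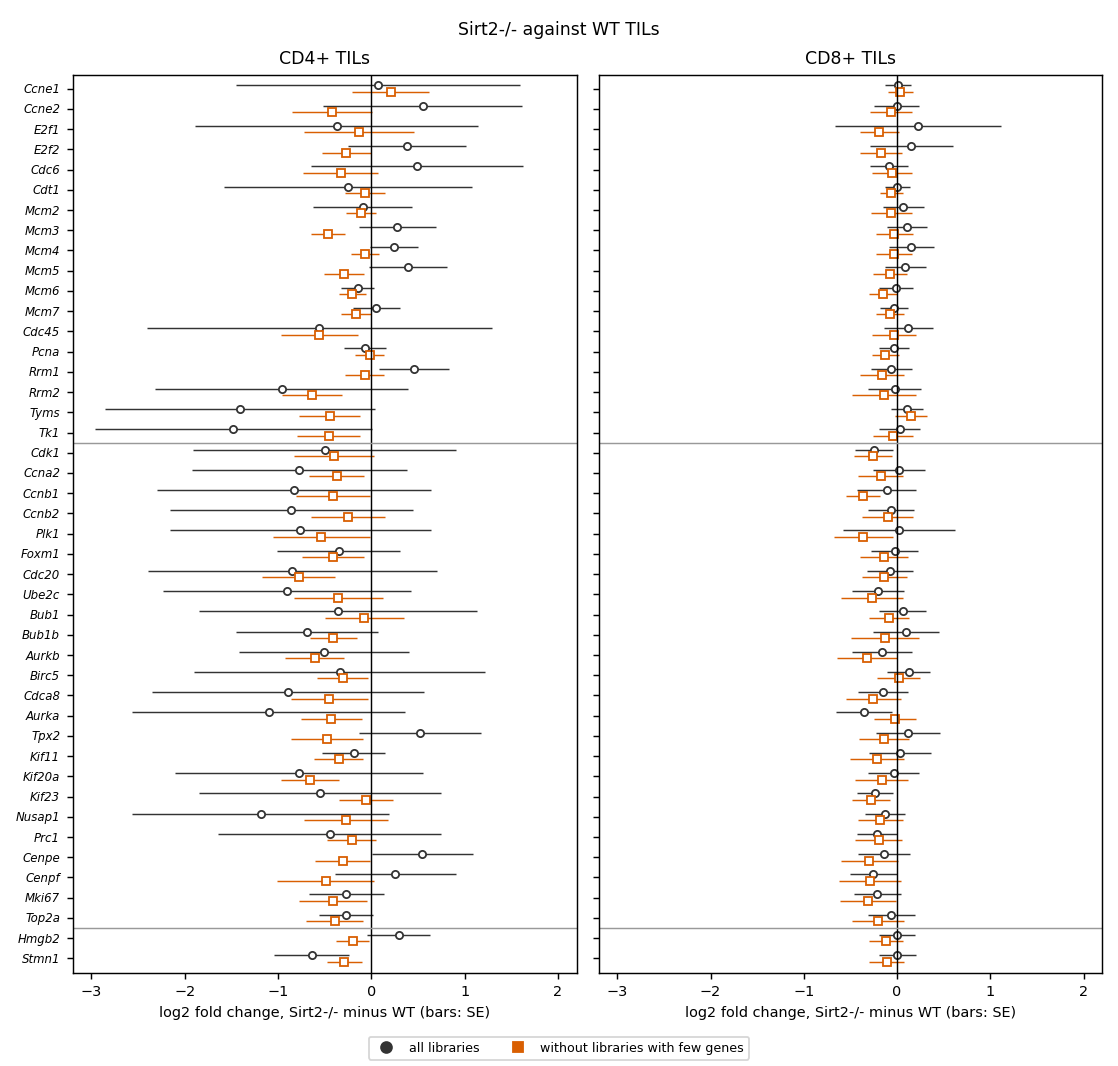
Log2 fold change of Sirt2-/- over WT TILs for each of the 44 genes in CD4+ (left) and CD8+ TILs (right), with SE bars. Circles use all libraries, squares leave out the 3 libraries with few genes, and all symbols are open because 0 genes passed an adjusted p of 0.05. Bars are wide in CD4+ TILs for genes with 0 counts in Sirt2-/- CD4+ replicate 4 and shorter for the squares, which lack that library and WT CD4+ replicate 1, while values in CD8+ TILs lie within 0.37 of 0.

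CD8+ and CD4+ TILs were then compared within each genotype. The WT and Sirt2-/- comparisons use different libraries, but each shares its libraries with the comparisons of genotype above. In WT TILs 16 of the 44 genes were higher in CD8+ cells (728 of 14892 genes tested, 4.89%) and 0 were lower: 12 of 18 S phase and 4 of 24 mitotic genes. The S phase genes called were Ccne1, Ccne2, Cdc6, the helicase genes Mcm2, Mcm3, Mcm4, Mcm5, Mcm6 and Mcm7, Pcna, Rrm1 and Rrm2, and the mitotic genes Ccna2, Bub1, Prc1 and Top2a. In Sirt2-/- TILs 3 of 44 were higher, Mcm6, Mcm7 and Pcna (0.918% of all genes), and 0 were lower. The median log2 fold change (CD8+ over CD4+) was 1.27 over the S phase and 0.77 over the mitotic genes in WT TILs. In Sirt2-/- TILs these medians were 1.28 and 1.47, and the medians over all genes were -0.02 (WT) and 0.16 (Sirt2-/-). At an unadjusted p below 0.05 there were 0 lower genes in either genotype.

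The number called depended on the libraries with few genes. Without them 33 of 44 genes were higher in CD8+ than in CD4+ WT TILs (17 S phase genes, 15 mitotic genes and Stmn1, 14.9% of all genes), and 32 of 44 in Sirt2-/- TILs (17, 14 and Stmn1, 13.8%), with 0 lower in both. The medians were then 1.39 and 0.98 over the S phase and the mitotic genes in WT TILs. For Sirt2-/- TILs they were 1.56 and 1.19, and the medians over all genes were 0.01 (WT) and 0.00 (Sirt2-/-). E2f2 was the S phase gene not called in either genotype. In Sirt2-/- TILs CD4+ replicate 4 was the only library left out, so the 32 is the result without that library. In WT TILs leaving out CD4+ replicate 1 alone gave 25. Leaving out a single other library gave 8 to 19 in WT and 0 to 2 in Sirt2-/- TILs. DESeq2 called 21 genes higher in WT (8.21% of all genes) and 9 in Sirt2-/- TILs (4.05%), and limma-voom with sample weights 36 in each (16.8% and 15.6%). In WT TILs 12 S phase and 7 mitotic genes had every CD8+ library above every CD4+ library (19 of 44, against 12.6% of all genes), and in Sirt2-/- TILs 14 and 14 and Stmn1 (29 of 44, against 16%).

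**Figure D4:**
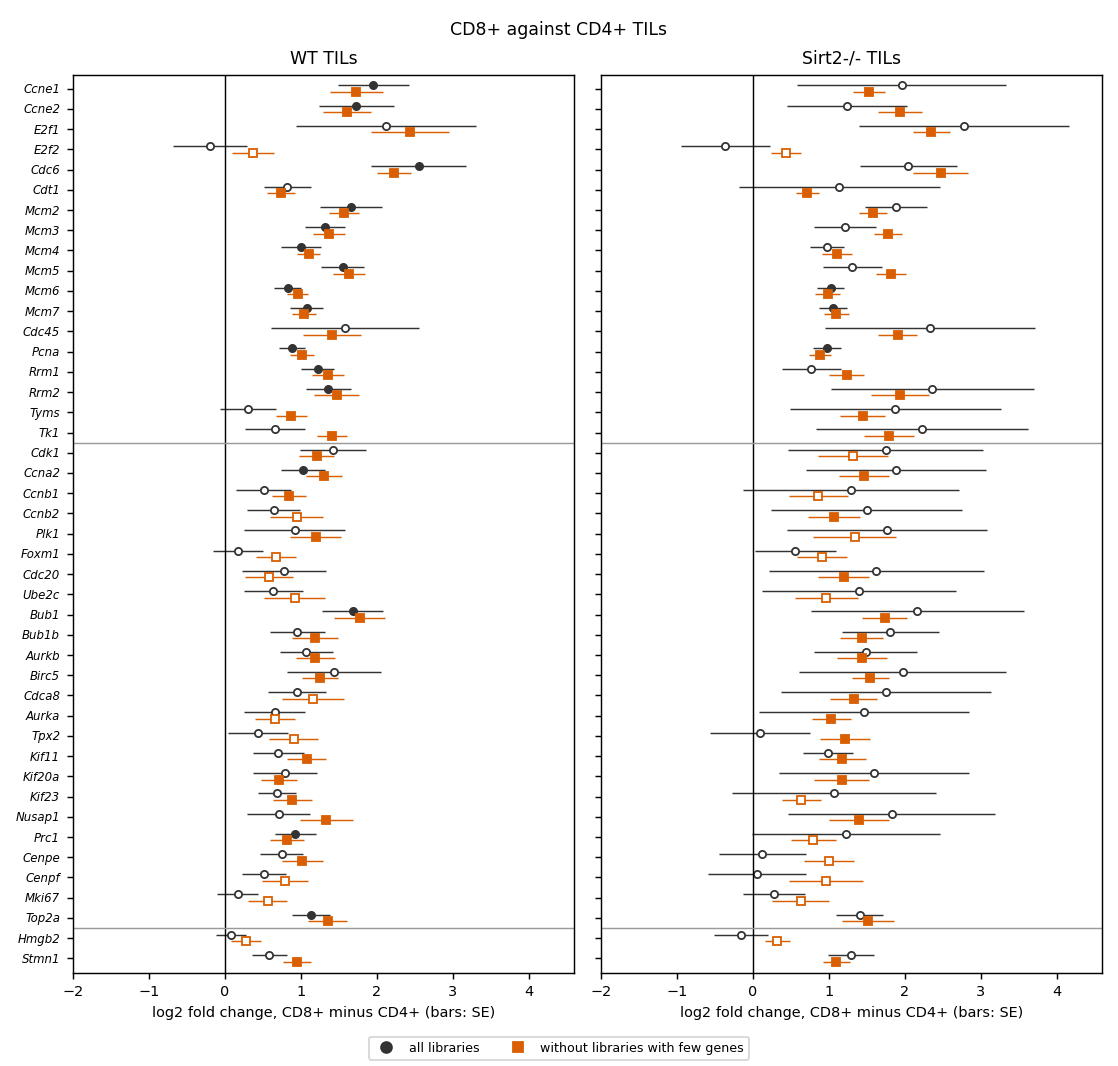
Log2 fold change of CD8+ over CD4+ TILs for each of the 44 genes in WT (left) and Sirt2-/- TILs (right), with SE bars. Circles use all libraries and squares leave out the 3 libraries with few genes, and filled symbols passed an adjusted p of 0.05, 16 and 3 genes with all libraries and 33 and 32 without. Nearly all values lie right of 0, with E2f2, Mki67 and Hmgb2 near it.

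In the values that follow, the number in parentheses after a fold change and its SE is edgeR's adjusted p. Among the regulators of the G1/S transition, E2f1 (ENSMUSG00000027490.17, chr2:154559407-154569892, - strand), an activating E2F factor, was at 1.76, 3.58, 0.802 and 5.15 CPM in the WT CD4+, 2.87, 2.76, 2.98 and 0 in the Sirt2-/- CD4+, 0, 19.4, 12.8 and 19.4 in the WT CD8+ and 11.2, 12.98, 19.9 and 16.1 in the Sirt2-/- CD8+ libraries. All Sirt2-/- CD8+ libraries and 3 of 4 WT CD8+ libraries stood above all CD4+ libraries, and WT CD8+ replicate 1 was at 0. The log2 fold change of CD8+ over CD4+ was 2.12 ± 1.18 (SE, adjusted p = 0.314) in WT and 2.78 ± 1.39 (adjusted p = 0.528) in Sirt2-/- TILs, and 2.44 ± 0.51 (0.00495) and 2.35 ± 0.25 (0.000113) without the libraries with few genes. Ccne2 (ENSMUSG00000028212.16, chr4:11191351-11204779, + strand), a cyclin E that activates CDK2, was at 1.40, 6.39, 3.70 and 2.86 CPM in the WT CD4+, 3.09, 2.74, 3.79 and 11.6 in the Sirt2-/- CD4+, 10.8, 12.2, 15.6 and 11.8 in the WT CD8+ and 9.68, 8.76, 16.3 and 15.4 in the Sirt2-/- CD8+ libraries. Apart from Sirt2-/- CD4+ replicate 4, the CD4+ libraries lay below the CD8+ libraries. It rose by 1.73 ± 0.50 in WT CD8+ TILs (adjusted p = 0.0444), while the fold change in Sirt2-/- TILs was 1.24 ± 0.79 (0.699) and 1.93 ± 0.29 (0.000809) without that library. The WT call of Ccne2 was lost in 7 of 16 alternative fits. E2f2, the other E2F of the list, had a log2 fold change of -0.19 ± 0.49 in WT and -0.36 ± 0.58 in Sirt2-/- TILs.

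The helicase and its clamp include the 3 genes called in both genotypes, Mcm6, Mcm7 and Pcna. In Sirt2-/- TILs these calls were lost with the replicate number as a block, at adjusted p values of 0.0558, 0.0582 and 0.149. Mcm5 (ENSMUSG00000005410.6, chr8:75109569-75128439, + strand), whose promoter is printed above, was at 38.2, 65.3, 44.3 and 81.1 CPM in the WT CD4+, 46.5, 44.5, 64.2 and 147 in the Sirt2-/- CD4+, 111, 224, 157 and 215 in the WT CD8+ and 151, 152, 221 and 226 in the Sirt2-/- CD8+ libraries. Its WT libraries did not overlap between the cell types, nor did the Sirt2-/- libraries, although replicate 4 of the CD4+ group came close to the lowest CD8+ library. The log2 fold change was 1.55 ± 0.28 (SE, adjusted p = 0.00442) in WT and 1.31 ± 0.39 (0.161) in Sirt2-/- TILs, the latter 1.82 ± 0.20 (0.000212) without that library. Mcm6 (ENSMUSG00000026355.11, chr1:128331590-128359664, - strand) was at 156, 218, 171 and 192 CPM in the WT CD4+, 138, 173, 191 and 161 in the Sirt2-/- CD4+, 243, 426, 315 and 392 in the WT CD8+ and 293, 278, 418 and 369.9 in the Sirt2-/- CD8+ libraries. Here even the libraries with few genes fell in with their groups, and it rose by 0.83 ± 0.18 in WT (0.0131) and by 1.02 ± 0.17 in Sirt2-/- CD8+ TILs (0.0226). Mcm7 (ENSMUSG00000029730.16, chr5:138164583-138172422, - strand), a further subunit of the ring, was at 51.7, 86.4, 69.7 and 106 CPM in the WT CD4+, 82.6, 66.99, 83.7 and 92.4 in the Sirt2-/- CD4+, 156, 206, 155 and 182 in the WT CD8+ and 146, 136, 206 and 196 in the Sirt2-/- CD8+ libraries. It rose by 1.08 ± 0.21 (0.00746) and 1.06 ± 0.18 (0.0247) in WT and Sirt2-/- CD8+ TILs, with no overlap of the cell types. Pcna (ENSMUSG00000027342.14, chr2:132249162-132253314, - strand), the sliding clamp of DNA polymerase, was at 63.9, 85.9, 60.6 and 59.1 CPM in the WT CD4+, 69.3, 67.9, 65.1 and 53.4 in the Sirt2-/- CD4+, 104, 156, 126 and 136 in the WT CD8+ and 116, 98.5, 151 and 144 in the Sirt2-/- CD8+ libraries. It rose by 0.88 ± 0.17 (0.00692) and 0.98 ± 0.18 (0.0342). Between the genotypes, the log2 fold change of Pcna was -0.07 (95% interval -0.51 to 0.37) in CD4+ and -0.03 (-0.34 to 0.27) in CD8+ TILs.

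Of the 4 enzymes of deoxynucleotide synthesis, 2 were called in WT (Rrm1 and Rrm2) and 0 in Sirt2-/- TILs, and 4 in each without the libraries with few genes. Rrm2 (ENSMUSG00000020649.11, chr12:24708241-24714146, + strand), the S phase subunit of ribonucleotide reductase, was at 19.4, 36.7, 16.4 and 20.7 CPM in the WT CD4+, 10.1, 14.8, 22.4 and 0 in the Sirt2-/- CD4+, 46.6, 90.3, 48.7 and 66.3 in the WT CD8+ and 45.2, 38.7, 89.9 and 72.9 in the Sirt2-/- CD8+ libraries. Each CD8+ library lay above each CD4+ library of its genotype, and it rose in WT CD8+ TILs by 1.36 ± 0.30 (SE, adjusted p = 0.0125), with 2.36 ± 1.34 (0.626) in Sirt2-/- TILs and 1.93 ± 0.38 (0.00798) without the library at 0. Between the genotypes it stood at -0.96 ± 1.35 in CD4+ and -0.03 ± 0.28 in CD8+ TILs. Tyms (ENSMUSG00000025747.12, chr5:30058202-30073617, - strand), thymidylate synthase, was at 35.1, 14.1, 11.01 and 10.9 CPM in the WT CD4+, 4.70, 9.57, 12.1 and 0 in the Sirt2-/- CD4+, 24.6, 25.4, 18.1 and 22.9 in the WT CD8+ and 18.9, 22.7, 28.98 and 27.3 in the Sirt2-/- CD8+ libraries. WT CD4+ replicate 1 exceeded every other library, so that the WT cell types overlapped at 0.30 ± 0.37 (0.691), and without the libraries with few genes Tyms rose by 0.88 ± 0.20 (0.00799) in WT and by 1.45 ± 0.30 (0.00565) in Sirt2-/- CD8+ TILs. Rrm1, with the values given above, rose in WT CD8+ TILs by 1.22 ± 0.22 (0.00424).

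Of the mitotic kinases and cyclins, Cdk1 (ENSMUSG00000019942.13, chr10:69335146-69352938, - strand), the kinase that drives entry into mitosis, was at 2.59, 15.1, 9.16 and 9.61 CPM in the WT CD4+, 3.11, 8.86, 13.7 and 0.0179 in the Sirt2-/- CD4+, 25.2, 30.1, 22.6 and 26.02 in the WT CD8+ and 15.7, 17.4, 27.7 and 26.5 in the Sirt2-/- CD8+ libraries. The cell types did not overlap in either genotype, yet Cdk1 missed the threshold in both, at 1.43 ± 0.44 (SE, adjusted p = 0.0582) in WT and 1.75 ± 1.29 (0.784) in Sirt2-/- TILs, and passed it in WT without the libraries with few genes (1.21 ± 0.23, 0.00274). Ccna2 (ENSMUSG00000027715.9, chr3:36564865-36572150, - strand), cyclin A, which acts in S phase and G2, was at 27.9, 36.4, 22.6 and 24.1 CPM in the WT CD4+, 12.4, 20.9, 30.9 and 0.0358 in the Sirt2-/- CD4+, 32.6, 92.4, 53.6 and 59.7 in the WT CD8+ and 42.4, 52.9, 78.95 and 67.4 in the Sirt2-/- CD8+ libraries. It rose in WT CD8+ TILs by 1.03 ± 0.29 (0.0414), although WT CD8+ replicate 1 fell within the CD4+ range. The call of Ccna2 was lost in 6 of 16 alternative fits. Ccnb1 (ENSMUSG00000041431.16, chr13:100778650-100786570, - strand), the main cyclin partner of CDK1, was at 12.6, 14.7, 11.1 and 10.1 CPM in the WT CD4+, 3.62, 9.31, 14.1 and 0 in the Sirt2-/- CD4+, 7.65, 27.2, 17.7 and 20.2 in the WT CD8+ and 13.4, 15.2, 18.8 and 19.8 in the Sirt2-/- CD8+ libraries. Its groups overlapped, with 0.51 ± 0.36 (0.447) in WT and 1.29 ± 1.43 (0.954) in Sirt2-/- TILs. Foxm1 (ENSMUSG00000001517.14, chr6:128362967-128376146, + strand), the factor that activates mitotic genes, was at 35.9, 19.6, 12.5 and 21.7 CPM in the WT CD4+, 9.31, 9.66, 21.4 and 29.8 in the Sirt2-/- CD4+, 19.5, 36.3, 18.9 and 30.9 in the WT CD8+ and 18.7, 22.5, 35.5 and 26.9 in the Sirt2-/- CD8+ libraries. It had the smallest fold changes of this set, 0.18 ± 0.33 (0.813) and 0.56 ± 0.53 (0.910).

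The genes of the spindle checkpoint and the APC/C include those whose proteins SIRT2 acts on. Cdc20 (ENSMUSG00000006398.15, chr4:118432901-118437352, - strand), the APC/C activator of anaphase, was at 1.56, 14.8, 6.64 and 10.4 CPM in the WT CD4+, 3.18, 6.52, 8.79 and 0 in the Sirt2-/- CD4+, 13.1, 19.7, 10.7 and 17.4 in the WT CD8+ and 11.51, 10.98, 18.04 and 17.3 in the Sirt2-/- CD8+ libraries. Bub1b (ENSMUSG00000040084.9, chr2:118598211-118641591, + strand), which encodes BUBR1, was at 20.1, 35.02, 19.2 and 18.8 CPM in the WT CD4+, 15.6, 18.4, 20.8 and 2.36 in the Sirt2-/- CD4+, 22.7, 77.3, 35.7 and 54.3 in the WT CD8+ and 35.1, 35.3, 76.3 and 56.01 in the Sirt2-/- CD8+ libraries. For both genes the genotypes overlapped in each cell type. The log2 fold change of Sirt2-/- over WT was -0.85 ± 1.54 (95% interval -3.87 to 2.18) for Cdc20 and -0.69 ± 0.76 (-2.18 to 0.80) for Bub1b in CD4+ TILs, and -0.07 ± 0.25 (-0.56 to 0.41) and 0.10 ± 0.35 (-0.59 to 0.79) in CD8+ TILs. Without the libraries with few genes the CD4+ values were -0.78 ± 0.39 and -0.41 ± 0.25, at unadjusted p values of 0.0707 and 0.131. Between the cell types, Bub1b stood at 0.95 ± 0.36 (adjusted p = 0.122) in WT and 1.81 ± 0.64 (0.257) in Sirt2-/- TILs, and Cdc20 at 0.78 ± 0.55 (0.443) and 1.62 ± 1.41 (0.870). Bub1 (ENSMUSG00000027379.13, chr2:127801122-127831865, - strand), the partner checkpoint kinase, was at 4.09, 9.70, 3.92 and 4.27 CPM in the WT CD4+, 3.44, 6.88, 6.64 and 0 in the Sirt2-/- CD4+, 12.7, 23.6, 16.2 and 21.7 in the WT CD8+ and 14.2, 15.2, 25.4 and 22.4 in the Sirt2-/- CD8+ libraries. Every CD8+ library was above every CD4+ library, and Bub1 rose in WT CD8+ TILs by 1.68 ± 0.40 (0.0189), the largest change of a mitotic gene there. Its call was lost in 5 of 16 alternative fits.

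Among the genes of chromosome structure, Top2a and Mki67 gave different results. Top2a (ENSMUSG00000020914.17, chr11:98992943-99024189, - strand), topoisomerase II alpha, which untangles chromosomes, was at 161, 229, 124 and 112 CPM in the WT CD4+, 74.9, 123, 156 and 164 in the Sirt2-/- CD4+, 249, 499, 335 and 360.2 in the WT CD8+ and 254, 232, 469 and 424 in the Sirt2-/- CD8+ libraries. No CD4+ library reached the CD8+ range of its genotype, and Top2a rose in WT CD8+ TILs by 1.13 ± 0.25 (SE, adjusted p = 0.0127), with 1.41 ± 0.31 (0.0657) in Sirt2-/- TILs. Mki67 (ENSMUSG00000031004.8, chr7:135689784-135716361, - strand), which encodes the Ki-67 antigen that coats mitotic chromosomes and is the usual stain for cycling T cells, was at 692, 572, 342 and 299 CPM in the WT CD4+, 158, 329, 422 and 670.1 in the Sirt2-/- CD4+, 437, 831, 449 and 520.1 in the WT CD8+ and 317, 386, 633 and 589.8 in the Sirt2-/- CD8+ libraries. Its 4 groups overlapped, at 0.17 ± 0.27 (0.781) in WT and 0.28 ± 0.41 (0.998) in Sirt2-/- TILs, and 0.56 ± 0.26 (0.141) and 0.63 ± 0.37 (0.282) without the libraries with few genes. The ratio of Mki67 to Top2a in CPM was 4.30, 2.49, 2.75 and 2.68 in the WT CD4+ and 2.11, 2.68, 2.71 and 4.08 in the Sirt2-/- CD4+ libraries, and 1.75, 1.66, 1.34 and 1.44 in the WT CD8+ and 1.25, 1.66, 1.35 and 1.39 in the Sirt2-/- CD8+ libraries. It was higher in every CD4+ than in every CD8+ library, in 16 of 16. Mki67 alone made up 33.9% to 46.8% of the mitotic sum in CD4+ and 26.2% to 31.4% in CD8+ libraries. A ratio within a library shows unequal levels of the pair and not which of them differs. Between the genotypes, the log2 fold change of Mki67 was -0.27 ± 0.40 (95% interval -1.05 to 0.52) in CD4+ and -0.21 ± 0.25 (-0.71 to 0.28) in CD8+ TILs, and that of Top2a -0.27 ± 0.29 (-0.84 to 0.30) and -0.06 ± 0.25 (-0.56 to 0.43).

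**Figure D5:**
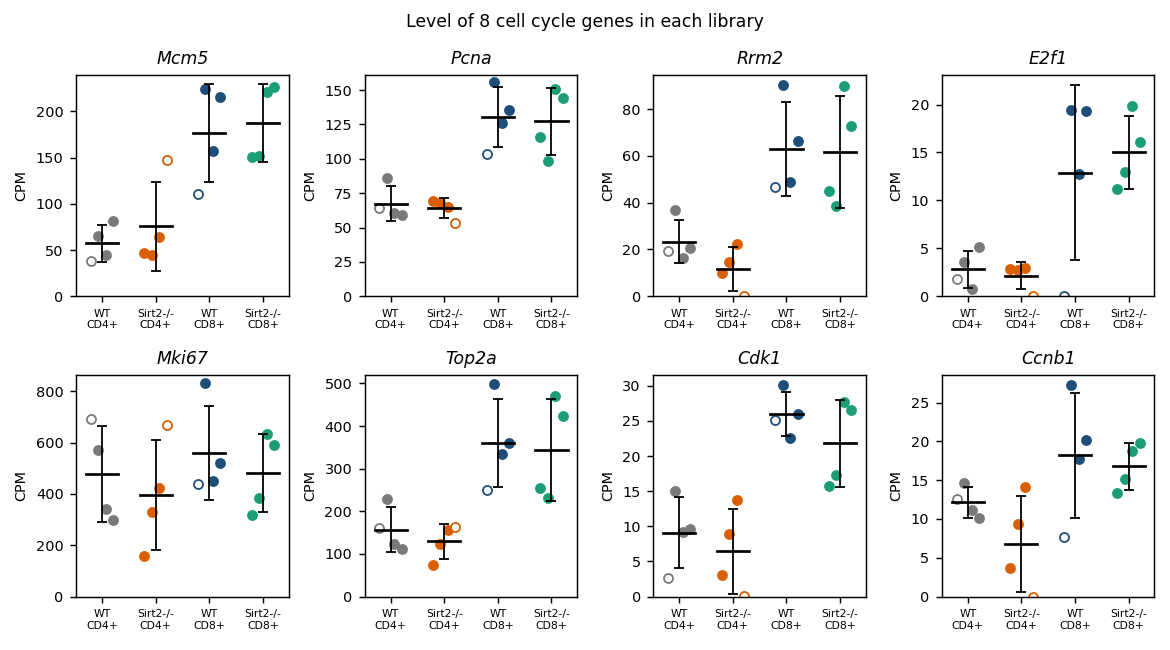
CPM of 4 S phase genes (top) and 4 mitotic genes (bottom) in each library by group. Open points are the 3 libraries with few genes detected, bars the mean and SD of 4 libraries. For Mcm5, Pcna, Rrm2, Top2a and Cdk1 the CD8+ points of each genotype lie above its CD4+ points, although Pcna alone of these passed the test in both genotypes, and Mki67 overlaps among all 4 groups.

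The other genes are given by their range. The passenger complex of Aurora B (Aurkb, Birc5 and Cdca8) had fold changes of CD8+ over CD4+ from 0.95 to 1.44 in WT and from 1.49 to 1.97 in Sirt2-/- TILs, with 0 of 3 called in either, and 2 and 3 of 3 called without the libraries with few genes. The 9 genes of the spindle, midzone and kinetochore ran from 0.44 to 0.93 in WT, where 1 was called, and from 0.06 to 1.83 in Sirt2-/- TILs, where 0 were. The gene called was Prc1, which bundles midzone microtubules, at 0.93 ± 0.27 (adjusted p = 0.0454). Of these 9, 6 and 5 were called without the libraries with few genes, in WT and in Sirt2-/- TILs. The 8 origin licensing genes, by contrast, ran from 0.82 to 2.55 in WT with 7 called and from 0.98 to 2.04 in Sirt2-/- TILs with 2 called, and 8 of 8 were called in both without those libraries.

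Hmgb2 and Stmn1, in neither list, are given last. Hmgb2 has pseudogenes, and how reads shared with such copies were counted is not given in the sources used here. Hmgb2 (ENSMUSG00000054717.7, chr8:57511907-57515999, + strand) was at 442, 560.2, 390.5 and 344 CPM in the WT CD4+, 304, 409, 412 and 1007 in the Sirt2-/- CD4+, 353, 643, 404 and 530.4 in the WT CD8+ and 371, 455, 605 and 494 in the Sirt2-/- CD8+ libraries. Apart from Sirt2-/- CD4+ replicate 4, the highest library, its groups overlapped, with 0.08 ± 0.20 (SE, adjusted p = 0.864) in WT and -0.15 ± 0.36 (0.998) in Sirt2-/- TILs for CD8+ over CD4+. Stmn1 (ENSMUSG00000028832.11, chr4:134468320-134473843, + strand), stathmin, which destabilizes microtubules and is silenced at mitotic entry by phosphorylation, was at 53.04, 40.7, 26.1 and 35.5 CPM in the WT CD4+, 27.02, 27.03, 29.4 and 15.2 in the Sirt2-/- CD4+, 45.3, 76.9, 53.5 and 68.3 in the WT CD8+ and 44.2, 55.6, 79.3 and 64.99 in the Sirt2-/- CD8+ libraries. It stood at 0.59 ± 0.23 (0.142) and 1.29 ± 0.30 (0.0780), and rose by 0.95 ± 0.19 (0.00359) and 1.10 ± 0.17 (0.00121) without the libraries with few genes. Between the genotypes in CD4+ TILs Stmn1 had the smallest unadjusted p of all 44 genes, 0.142, at -0.64 ± 0.40.

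Whether the genotype effect differed between CD8+ and CD4+ TILs was tested over all 16 libraries. For 0 of the 44 genes did it pass an adjusted p of 0.05 in edgeR (0.0% of 17270 genes), and 0 passed at an unadjusted p below 0.05 (1.98% of all genes). DESeq2 and limma-voom also called 0 of the 44, against 0.0116% and 0.0% of all genes. The median interaction on the log2 scale, CD8+ minus CD4+, was 0.00 over the S phase and 0.45 over the mitotic genes, beside 0.14 over all genes, and 0.09 and 0.18 beside 0.03 without the libraries with few genes. The genes with the smallest p of each list were Tyms, at 1.54 ± 1.35 (SE, adjusted p = 0.9999), and Bub1b, at 0.80 ± 0.74 (adjusted p = 0.9999). Without those libraries they were at 0.60 ± 0.36 and 0.28 ± 0.49.

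The rest of the cell cycle machinery was followed with 73 further genes in 4 sets. Between the genotypes 0 of them passed the adjusted test in either cell type. In CD4+ TILs 3 of 73 passed at an unadjusted p below 0.05 and in CD8+ TILs 1 of 72, against 1.26% and 3.78% of all genes. Without the libraries with few genes, 3 higher and 8 lower of 73 did so in CD4+ TILs. Of the 16034 genes tested there, 417 did so higher and 280 lower, 4.35% in either direction. The 8 were 3 of 16 replication genes, 4 of 27 genes of mitotic entry and exit and 1 of 18 G1 genes. In CD8+ TILs 1 of 73 did so (4.18% of all genes). Again 0 passed the adjusted test. With all libraries, the smallest p values in CD4+ TILs belonged to Lin54, a subunit of the DREAM complex, and Cdk6, a partner of the D cyclins. Lin54 stood at 0.89 ± 0.38 (SE, adjusted p = 0.9999) and Cdk6 at -0.51 ± 0.22 (adjusted p = 0.9999). Lin54 was at 76.4 CPM in Sirt2-/- CD4+ replicate 4 and 14.8 in WT CD4+ replicate 1, against 30.6 to 61.0 in the other CD4+ libraries. In CD8+ TILs the smallest were those of Lin52, of the same complex as Lin54, at 0.61 ± 0.27 (adjusted p = 0.986), and Rbl1, a relative of RB1, at 0.25 ± 0.11 (adjusted p = 0.986). Without the libraries with few genes, edgeR's smallest unadjusted p in CD4+ TILs was 0.0039 (adjusted p = 0.691), of a G1 gene. The interaction called 0 of 73, and its smallest p values were those of Lig1 at 0.75 ± 0.38 (adjusted p = 0.9999) and Rb1 at -0.43 ± 0.24 (adjusted p = 0.9999).

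Between the cell types, 12 of the 73 were higher and 3 lower in WT CD8+ TILs, and 3 of 72 higher and 2 lower in Sirt2-/- CD8+ TILs. Of all genes tested, 4.89% were higher and 6.96% lower in WT, and 0.918% and 1.32% in Sirt2-/- CD8+ TILs. The set of G1 cyclins, kinases and brakes went both ways, with 2 higher and 2 lower in each genotype. Cdk6 rose by 1.11 ± 0.12 (adjusted p = 0.000273) in WT and by 1.68 ± 0.28 (0.0217) in Sirt2-/- CD8+ TILs, Cdk4, the other kinase of the D cyclins, by 1.09 ± 0.18 (0.00278) in WT, and Ccnd2, a D cyclin, by 0.60 ± 0.11 (0.0335) in Sirt2-/- TILs. A pair of brakes fell. Cdkn1b, the inhibitor p27, had -1.16 ± 0.18 (0.00172) and -1.39 ± 0.21 (0.0133), and Rb1, which holds E2F factors, -0.61 ± 0.14 (0.0174) and -0.98 ± 0.19 (0.0408) in WT and Sirt2-/- TILs.

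In the replication set 5 of 16 were higher in WT CD8+ TILs: Lig1, which joins Okazaki fragments (1.001 ± 0.20, adjusted p = 0.00788), the primase Prim1 (1.62 ± 0.34, 0.00958), the checkpoint adaptor Clspn (1.44 ± 0.31, 0.0124), the origin firing factor Gins2 (1.61 ± 0.44, 0.0369) and the checkpoint kinase Chek1 (1.99 ± 0.56, 0.0422). Lig1 was also higher in Sirt2-/- CD8+ TILs (1.81 ± 0.32, 0.0299). Of the E2F family and its partners, Tfdp1, the dimer partner of E2F factors (1.29 ± 0.23, 0.00412), and E2f6 (0.84 ± 0.20, 0.0190), a repressor, were higher in WT. Of the 27 genes of mitotic entry and exit, the condensin subunit Smc2 (1.06 ± 0.25, 0.0178), separase, Espl1 (1.54 ± 0.40, 0.0285), and the cytokinesis gene Anln (1.47 ± 0.40, 0.0362) were higher, and Cdc25b, a phosphatase that activates CDK1, was lower (-1.05 ± 0.22, 0.0102). Without the libraries with few genes 40 of 73 were higher and 6 lower in each genotype, where of all genes 14.9% were higher and 13.1% lower in WT, and 13.8% and 11.6% in Sirt2-/- TILs.

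Other cell types could add cycling or resting RNA unequally, and their markers were read beside these results. From CD4+ to CD8+ TILs the 3 NK markers (Ncr1, Klrb1c and Eomes) summed to 15.7 to 45.7 and 210.4 to 417 CPM, and the 4 stromal and endothelial markers to 64.5 to 179 and 36.2 to 102 CPM. Eomes is also made by CD8+ T cells. The 6 T cell markers summed to 1507 to 2233 CPM in CD4+ and 1883 to 2459 in CD8+ libraries. Sums of the 9 myeloid markers were 1.496 to 31.6 and 2.24 to 36.0 CPM, and those of the 4 B cell markers 0.0179 to 12.5 and 1.54 to 4.37 CPM. Ncr1 was at 0 in at least 1 library of each group but Sirt2-/- CD8+. Of the 4 stromal markers, 2 collagens were at 0 in some library of each CD4+ group. In the WT CD8+ group Col1a1, Col1a2 and Col3a1 were at 0 in some library, and in the Sirt2-/- CD8+ group no stromal marker was. The 4 erythroid markers reached 9.31 CPM in WT CD4+ replicate 1 and at most 3.32 elsewhere. How far these cells contributed to the higher values of CD8+ TILs was not tested.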

How the data were processed

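Per the labels and the study's methods, RNA of CD4+ and CD8+ TILs (RNeasy Micro) was made into stranded, ribosomal RNA-depleted libraries with the SMARTer Stranded Total RNA Pico kit and sequenced on a NextSeq 2000. The authors deposited 1 table of raw counts per gene for the 16 libraries. The submitters' processing notes name STAR, HTSeq and the mm10 genome. Their versions and the tool for differential expression are not given in the sources used here. Gene IDs matched GENCODE mouse release 21 on GRCm38 for 55450 of 55450 genes. Total counts ran from 28000949 to 62407851 per library. Between libraries of a group, a chi-square of the counts over its degrees of freedom was 23.9 to 1258 over 24 pairs, so no pair of libraries matched within sampling noise.

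From these counts, each comparison was fitted on its 8 libraries with edgeR 4.0.16 in R 4.3.3 (filterByExpr, TMM factors, robust quasi-likelihood test, two-sided), and the difference of genotype effects on all 16. Calls are at a Benjamini-Hochberg adjusted p below 0.05 over all genes tested. Fold changes are log2 with SE, the SE being the absolute fold change over the square root of F. CPM used TMM factors over 16 libraries, and RPKM divided CPM by kilobases of merged exons. The scripts were tested on simulated data. As alternatives, the comparisons were repeated in limma 3.58.1 (voom, quality weights), in DESeq2 1.42.0, with no filter, other scalings, the replicate number as a block, 1 model over 16 libraries, leaving out each library in turn and leaving out the 3 libraries with few genes. A count of 0 allows up to 3 counts, which covers counting error only. The genes, the lists and the libraries left out were chosen with earlier results of these data known. Named genes were those fixed by symbol, plus the S phase and mitotic genes of smallest p in each comparison. Mcm3, Aurkb, Prc1 and E2f2 were named after their values were seen.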

Additional observations from a re-analysis of the deposited data

Results flagged for a closer look

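For the genes fixed by symbol and for sums and ratios, Dixon's test at its 95% critical value was used. It set the lowest and the highest library of each group against the others. Sirt2 and genes named for their p values, such as Bub1 and Cenpe, were not among these, although their libraries are listed above. The test singled out 7 of 76 groups, where chance gives 3.8, and all 7 were CD4+ groups. In Sirt2-/- CD4+ replicate 4 there were 4: Ccne2 at 11.6 CPM and Hmgb2 at 1006.7 CPM, each the highest of its group, and E2f1 at 0 CPM and Stmn1 at 15.2 CPM, each the lowest. In WT CD4+ replicate 1 Tyms was the highest at 35.1 CPM, and the ratio of Mki67 to Top2a was the highest at 4.30. In WT CD4+ replicate 2 Bub1b was the highest at 35.0 CPM. Sirt2-/- CD4+ replicate 4 and WT CD4+ replicate 1 are those with the fewest genes detected, and the cause was not tested.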

How the results depend on the processing

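No alternative called any of the 44 genes between the genotypes. The count higher in CD8+ TILs was 16 in WT and 3 in Sirt2-/- TILs. It became 33 and 32 without the 3 libraries with few genes, 36 and 36 with limma-voom, 10 and 8 with all 16 libraries in 1 model, and 9 with DESeq2 in Sirt2-/- TILs. With the replicate number as a block it was 14 in WT and 1 in Sirt2-/- TILs, where Mcm6, Mcm7 and Pcna lost the call and Top2a gained it (adjusted p = 0.0459). Leaving out 1 library at a time gave 8 to 25 in WT (25 without CD4+ replicate 1, 8 without CD4+ replicate 3 or CD8+ replicate 4, 10 without CD8+ replicate 2) and 0 to 32 in Sirt2-/- TILs (32 without CD4+ replicate 4, 2 without CD8+ replicate 2 and 0 without any other). Directions turned under limma-voom and, as the second value, in the fit lacking those 3 libraries: in CD4+ Sirt2-/- against WT, Mcm5 to -0.12 and -0.29, Rrm1 to -0.062 and -0.072 and Cenpe to -0.22 and -0.31. In CD8+, Mcm5 turned to -0.14 and -0.077 and Mcm4 to -0.098 and -0.035. Hmgb2 in CD8+ against CD4+ Sirt2-/- TILs turned to 0.24 and 0.33. Ccnb1 between the CD8+ genotypes was 0.0017 under the block. Leaving out 1 library at a time, CD4+ genotype values ran from -0.13 to 0.61 (Mcm5), -0.020 to 0.67 (Rrm1) and -0.34 to 0.83 (Cenpe), and CD8+ values from -0.36 to 0.046 (Mki67), -0.077 to 0.23 (Mcm5), -0.26 to 0.20 (Rrm2), -0.37 to 0.15 (Ccnb1) and -0.035 to 0.31 (Mcm4). CD8+ over CD4+ values in WT ran from -0.025 to 0.46 (Mki67), -0.012 to 0.55 (Foxm1) and -0.020 to 0.26 (Hmgb2), and in Sirt2-/- TILs from -0.36 to 0.33 (Hmgb2). The cause of these shifts was not tested. Deviations of same-numbered libraries correlated at 0.0668 to 0.119 between WT CD4+ and CD8+ TILs, each library best with its own number, but at -0.0145 to 0.133 in Sirt2-/- and -0.0716 to 0.077 between genotypes. The labels do not state a pairing, so the numbers were not taken to pair the samples. Of the other single-gene values, 668 kept their direction and side of the threshold, 59 passed it only under the alternative and 42 no longer did. In WT TILs the 42 were of Ccne2 (7 of 16 alternatives), Ccna2 (6), Bub1 (5) and Rrm2 (1). In Sirt2-/- TILs they were of Pcna (9 of 16), Mcm6 (7) and Mcm7 (7).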
